A study of Schizosaccharomyces pombe with 8 samples.

Results

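The lipid genes described here are those of sterol, fatty acid, phospholipid and sphingolipid metabolism in the fission yeast Schizosaccharomyces pombe. They were chosen by their gene symbols from a fixed list of names (the erg, fas, sre, psd, are and related genes). The list itself uses no measured value, but it was drawn up with earlier results of these data known. The list matched 49 of the 2896 S. pombe genes that had a probe set of their own on the array, 48 through the symbol in the platform annotation and 1, erg4, through the newer symbol of the gene annotated as sts1. Each had 1 probe set, and all 49 passed the filter on dim genes. A further 11 genes of the list, ole1, elo1, elo2, erg26, plb2, plb3, plb4, plb5, ptl1, ptl2 and ptl3, are not analysed here because no probe set carried their names. By role, 19 members act in sterol synthesis, 3 were grouped as sterol regulators, 5 make or activate fatty acids and 4 make or remodel storage lipids. Of the rest, 8 make phospholipids, 2 are phospholipases, 2 are phosphoinositide kinases and 6 act on sphingolipids. On the genome, 25 lie on chromosome I, 20 on II and 4 on III.

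The study set an opi10+ strain beside an opi10- strain, named for the state of opi10, a fission yeast relative of Hikeshi, the carrier that brings HSP70 chaperones into the nucleus of heated human cells. Both strains were grown at 30C in liquid Edinburgh minimal medium until mid-log phase. Each was sampled unheated, at the end of a 1 h exposure to 43C, and then when recovery at 30C had lasted 1 h or 3 h, which gave 8 groups of 1 array each. RNA was labelled as cRNA from the 3' end and hybridised to an Affymetrix yeast array that carries probe sets of S. pombe and of budding yeast. The labels name no other allele, do not say how opi10 was altered, and do not say whether the samples of a strain came from 1 culture. No probe set in the annotation used here carried the name opi10, so the targeted gene did not check the labels.

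Fission yeast membranes hold ergosterol, glycerophospholipids and inositol-containing sphingolipids. Sterols are built from acetyl-CoA through mevalonate, squalene and lanosterol, in a pathway whose later steps consume oxygen, and the membrane-bound factor Sre1 with its partner Scp1 raises the genes of those steps when sterol or oxygen is low. Heat makes membranes more fluid, and sphingolipids and phosphoinositides take part in yeast stress signalling as well as in membrane structure.

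The deposited values were signals on a linear scale. Over S. pombe probe sets, the median signal was 1000 and 922 in the unheated opi10+ and opi10- arrays, 492 and 517 at 43C, and between 989 and 1100 on the 4 recovery arrays. The 27 spike-in probe sets did not share this drop, with medians from 641 to 809. Changes below are log2 differences of log2(signal + 16) after quantile normalization, so they are relative to the other genes, and on the deposited scale the median of all 2892 tested genes moved by -0.91 at 43C, by 0.92 from 43C to 1 h of recovery, and by 0.11 at 3 h. Ratios of 3' to 5' control probes also differed by stage, with ACT1 at 1.84 and 1.91 at 43C against 1.42 to 1.63 elsewhere, and TFIID at 1.12 and 1.07 against 1.41 to 1.66. The part of RNA quality in the results was not tested. Signals of the 49 genes lay from 186 to 6180, far above the 46 budding yeast probe sets of the same names, whose median was 5.93 and whose brightest, ERG25, reached 64.5. In RNA from whole cultures, fewer cells with a transcript and less of it per cell cannot be told apart.

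At 43C most of the lipid genes fell, while 5 of the 6 sphingolipid genes rose. Against the unheated arrays, 30 of the 49 genes fell and 12 rose at an adjusted p under 0.05 (limma, 2 arrays per stage). Of all 2892 tested genes, 39.8% fell and 32.8% rose. The members' median change was -0.37 log2, beside -0.07 over all tested genes. Falls of at least 2-fold were called for 10 members and rises of that size for 8, or 20.4% and 16.3%, beside 12.1% and 12.2% of all tested genes. On the deposited scale 38 members were called lower and 9 higher, and on a spike-in scale 38 and 7, while over all genes the split moved from 950 higher and 1152 lower to 323 and 2132 on the deposited scale. Without each array in turn, 21 of the 30 falls and 11 of the 12 rises were called. The change went the same way in both strains for 45 of 49 members and for 2644 of 2892 genes.

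**Figure D1:**
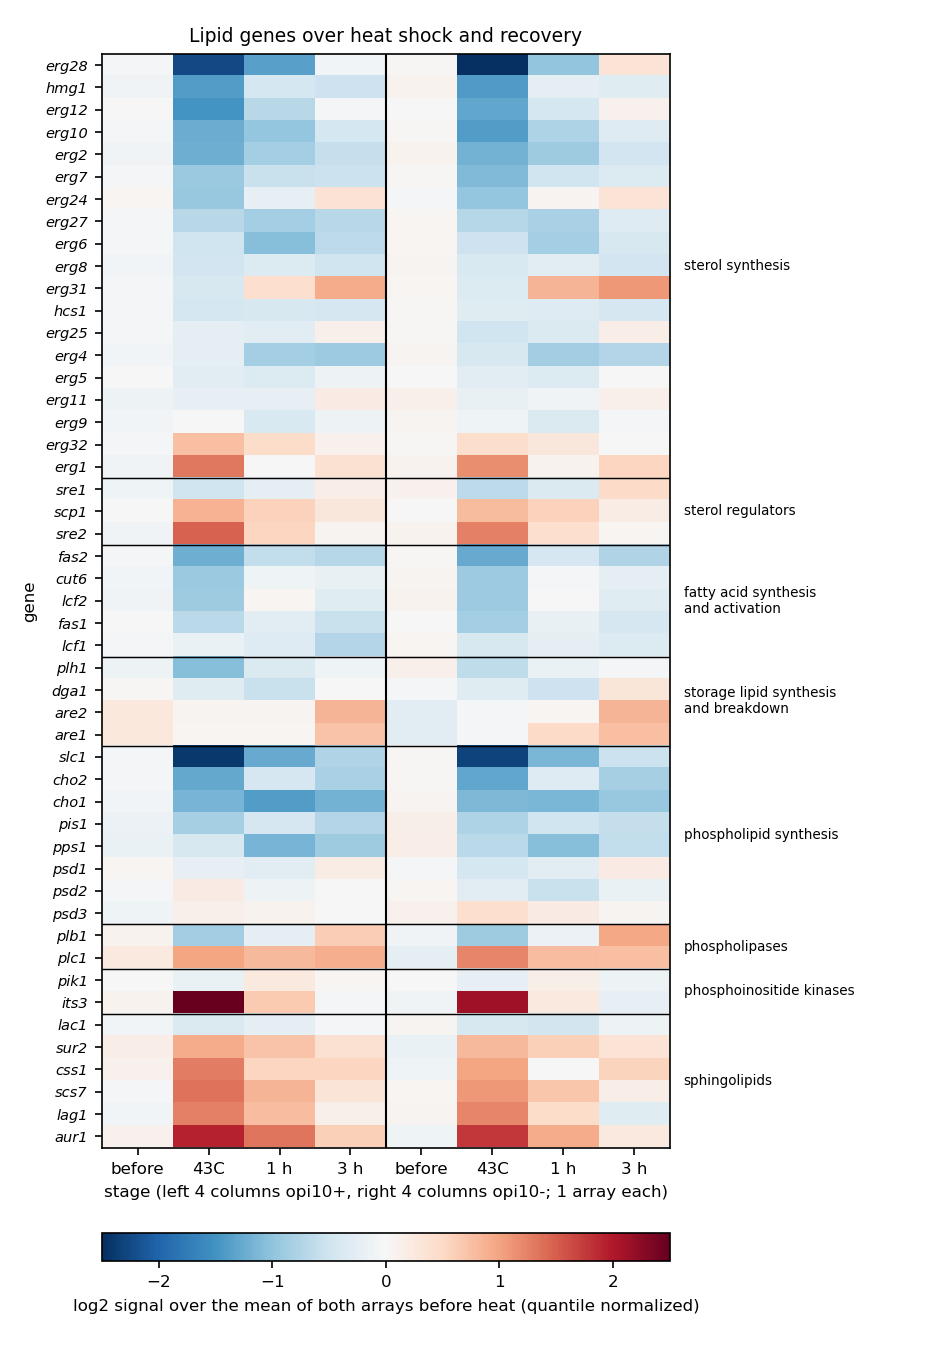
The 49 lipid genes (rows, grouped by role and sorted within a role by the mean change at 43C) on the 8 arrays (columns, 1 array each). Colour gives the quantile-normalized log2 signal minus the mean of both unheated arrays, blue for lower and red for higher; the 43C columns are mostly blue for sterol synthesis, fatty acids and phospholipids and mostly red for sphingolipids in both strains.

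**Figure D2:**
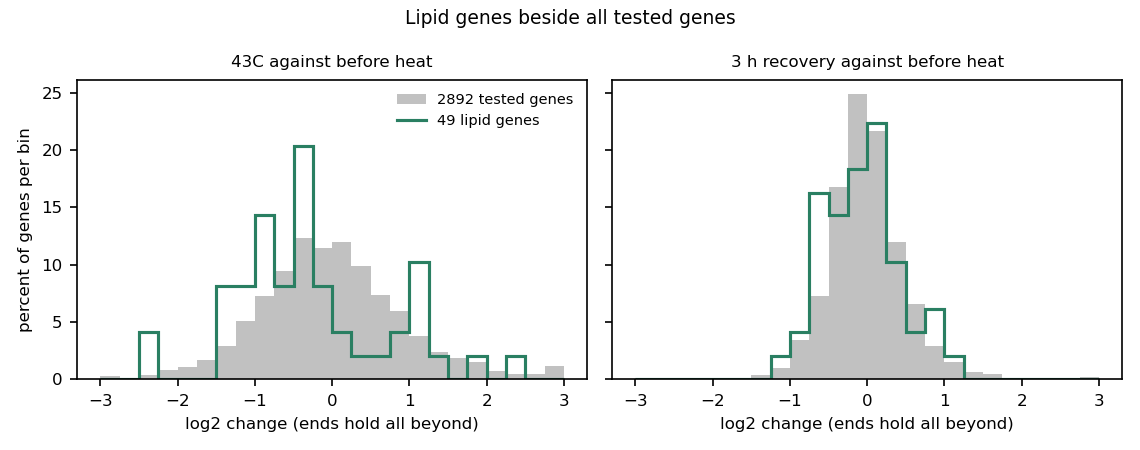
Distribution of the log2 change against the unheated arrays for all 2892 tested genes (grey) and the 49 lipid genes (green line), as percent of genes per bin of 0.25, at 43C (left) and at 3 h of recovery (right). At 43C the lipid genes have a median of -0.37 and a second group of bins near 1, and at 3 h a median of -0.07.

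Most genes of the sterol pathway fell at 43C, while a pair rose. Of 19 sterol synthesis genes 15 fell, 2 rose and 2 were not called, with a median of -0.44. The largest fall was that of erg28 (SPBC337.09), whose budding yeast counterpart holds the sterol demethylation enzymes together. Its signal in stage order, that is unheated, 43C, 1 h and 3 h of recovery, was 3697, 332.1, 1360 and 3449 in opi10+ and 3740, 287.1, 1773 and 4311 in opi10-. Both 43C arrays were lower than every other array by several fold, and both arrays at 3 h were back near or above the unheated ones. The change at 43C was -2.39 ± 0.17 log2 (SE, 2 arrays per stage), a 5.25-fold fall (adjusted p = 4.9e-05).

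Of the early steps that make or use mevalonate, hmg1, erg12 and erg10 were also among the largest falls. The signal of hmg1 (SPCC162.09C), the HMG-CoA reductase that controls flux into the pathway, was 1690, 290.9, 1313 and 1374 in opi10+ and 1805, 321.4, 1519 and 1516 in opi10-, in stage order. That of erg12 (SPAC13G6.11C), the mevalonate kinase, was 2012, 309.6, 1239 and 2032 in opi10+ and 1909, 408.7, 1488 and 2195 in opi10-. For erg10 (SPBC215.09C), the thiolase that joins acetyl-CoA units, signals of 5408, 1478, 2536 and 3908 were read in opi10+ and of 5211, 1267, 2928 and 4131 in opi10-. In all 3 genes the 43C arrays were the lowest of their strain, and the 1 h arrays lay below the unheated ones. The falls at 43C were -1.41 ± 0.09 for hmg1, -1.40 ± 0.09 for erg12 and -1.32 ± 0.11 for erg10 (adjusted p = 3.3e-05, 3.8e-05 and 7.4e-05).

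The other called falls of the pathway were smaller. They were those of erg2 (-1.20), a sterol isomerase, erg7 (-1.01), which closes the sterol rings as lanosterol synthase, erg24 (-0.96), a sterol reductase, and erg27 (-0.70), a ketosterol reductase. Falls of -0.51, -0.44 and -0.37 were measured for erg6, the sterol methyltransferase, erg8, phosphomevalonate kinase, and hcs1, HMG-CoA synthase. The falls of erg31 (-0.37), a sterol desaturase, erg25 (-0.37), a methylsterol oxidase, erg4 (-0.31), a late sterol reductase, and erg5 (-0.27), a cytochrome P450 desaturase, were each lost when 1 of at least 2 arrays was left out, with an adjusted p from 0.0562 to 0.258. Changes of -0.06 for erg9, squalene synthase, and -0.20 for erg11, the lanosterol demethylase that azole drugs inhibit, did not pass the test (adjusted p = 0.54 and 0.11).

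Against this, erg1 (SPBC713.12), the squalene epoxidase that carries out the first oxygen-dependent step, rose. Its signal was 1951, 3439, 1915 and 2776 in opi10+ and 2105, 2961, 2076 and 3028 in opi10-. It was highest at 43C in opi10+, and in opi10- about as high at 3 h of recovery as at 43C. The rise at 43C was 1.24 ± 0.10 log2 (adjusted p = 8.6e-05), and 0.65 on the deposited scale (adjusted p = 0.0012). The genes on either side in the pathway, erg9 and erg7, had changes of -0.06 and -1.01.

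A pair of sterol desaturase genes, erg31 and erg32, moved in opposite directions after normalization. The signal of erg31 (SPAC1687.16C) was 888.5, 292.7, 1198 and 1796 in opi10+ and 879, 337.9, 1613 and 1942 in opi10-. That of erg32 (SPBC27B12.03C) was 2361, 2628, 3035 and 2642 in opi10+ and 2315, 1988, 2642 and 2388 in opi10-. In deposited signal the first fell at 43C and then passed its unheated level, while the second stayed between 1988 and 3035. Relative to the other genes erg31 fell at 43C by only 0.37 ± 0.11 (adjusted p = 0.019). On the deposited scale its change was -1.445 (adjusted p = 1.8e-05), beside a median of -0.91 over all tested genes. At 43C erg32 rose by 0.60 ± 0.10 relative to the other genes (adjusted p = 0.0021), but on the deposited scale its change was -0.03 (adjusted p = 0.8).

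**Figure D3:**
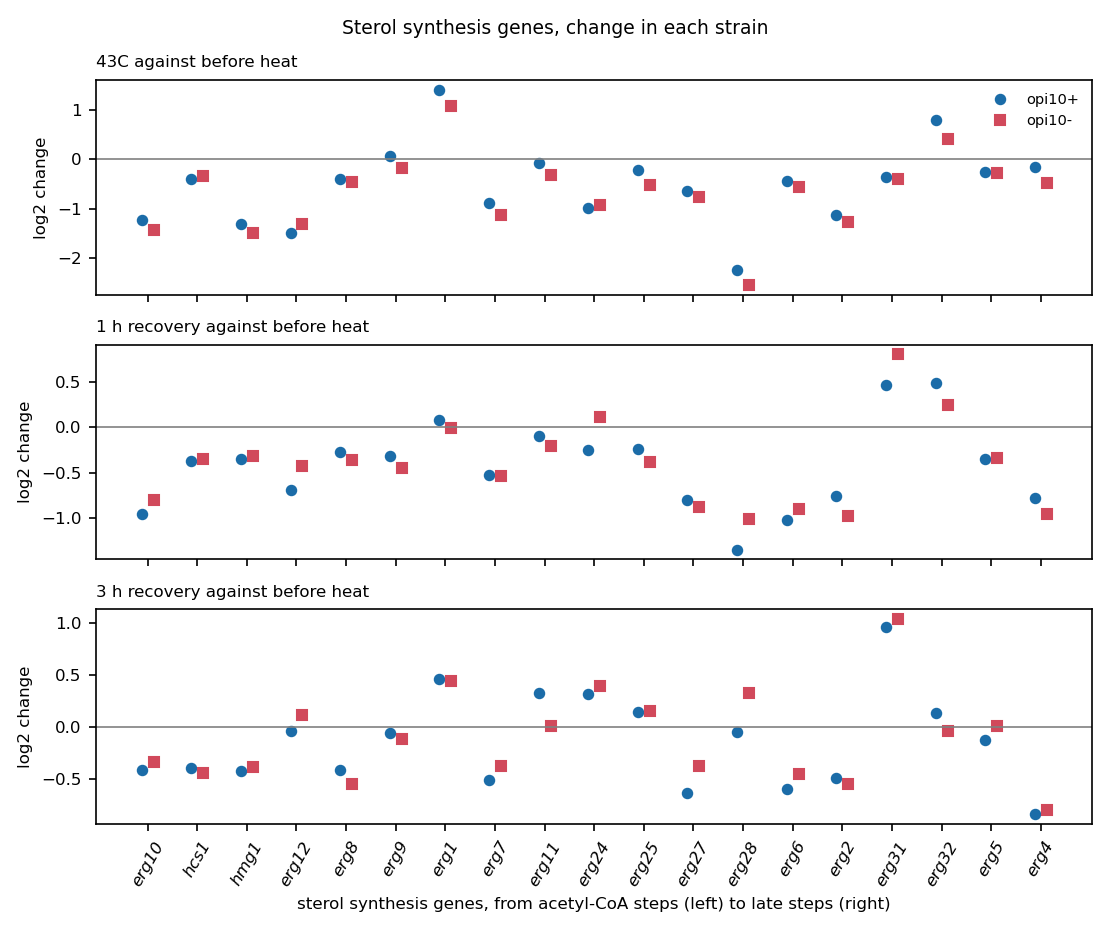
Log2 change of the 19 sterol synthesis genes against the unheated array of the same strain (vertical axes) at 43C, 1 h and 3 h of recovery (3 panels), ordered from the first steps to the late ones (horizontal axis); circles are opi10+ and squares opi10-, 1 array against 1 each. At 43C erg1 and erg32 lie above 0 in both strains and erg28 lies lowest, and at 3 h erg31 lies highest.

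The 3 genes grouped here as sterol regulators did not move together. The signal of sre1 (SPBC19C2.09), the membrane-bound transcription factor, was 1649, 699.5, 1492 and 2091 in opi10+ and 1810, 620.3, 1394 and 2538 in opi10-. For scp1 (SPBC3B9.15C), its sterol-binding partner, it was 888.8, 951, 1297 and 1191 in opi10+ and 849.9, 878.3, 1342 and 1063 in opi10-. The related gene sre2 (SPBC354.05C) had 346.1, 482.3, 515.6 and 461.9 in opi10+ and 349.9, 420.9, 505.3 and 428.4 in opi10-. The deposited signal of sre1 was lowest at 43C and highest at 3 h in both strains, and those of scp1 and sre2 peaked at 1 h.

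At 43C sre1 fell by 0.57 ± 0.14 (adjusted p = 0.0083), a call lost without the unheated or the 43C array of opi10- (adjusted p = 0.0528 and 0.0634). Relative to the other genes, sre2 rose by 1.37 ± 0.11 and scp1 by 0.83 ± 0.08 (adjusted p = 7.6e-05 and 0.00016). On the deposited scale the change of sre2 was 0.36 (adjusted p = 0.0098) and that of scp1 0.07 (adjusted p = 0.51), and on the spike-in scale neither was called (adjusted p = 0.071 and 0.74). None of the 3 was called at 3 h of recovery after normalization, with changes from 0.06 to 0.33. All 3 were called higher there on the deposited scale, sre1 by 0.41, scp1 by 0.37 and sre2 by 0.34 (adjusted p = 0.042, 0.025 and 0.031), and sre1 also on the spike-in scale (adjusted p = 0.034).

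Fatty acid synthesis genes fell at 43C without a rise among them. Of 5 genes 4 fell, with a median of -0.89. The signal of fas2 (SPAC4A8.11C), a subunit of fatty acid synthase, was 4820, 1327, 2944 and 3020 in opi10+ and 4815, 1258, 3383 and 2898 in opi10-. It was lowest at 43C and had not regained its unheated signal at 3 h in either strain. At 43C fas2 fell by 1.23 ± 0.09 (adjusted p = 5.8e-05), and the gene of the other subunit, fas1, by 0.76 ± 0.10 (adjusted p = 0.00052). Falls of -0.92 and -0.89 were measured for cut6, the acetyl-CoA carboxylase that supplies malonyl-CoA, and lcf2, a fatty acyl-CoA ligase.

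The second fatty acyl-CoA ligase gene, lcf1 (SPBC18H10.02), was not called at 43C, with a change of -0.28 (adjusted p = 0.11), but was without the 43C array of opi10+ (adjusted p = 0.0239). Its signal was 2564, 1482, 1903 and 1648 in opi10+ and 2567, 1192, 2076 and 2028 in opi10-. All 6 arrays after the start of heating were below both unheated arrays.

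Phospholipid synthesis genes fell by a median of -0.67, with 6 of 8 lower and 1 higher. The steepest fall was that of slc1 (SPAC1851.02), which makes phosphatidic acid by adding a fatty acid to its precursor. Its signal was 2587, 185.6, 1088 and 1633 in opi10+ and 2564, 230.2, 1203 and 1806 in opi10-, lowest at 43C and still below the unheated arrays at 3 h. The fall at 43C was -2.37 ± 0.08 (5.15-fold, adjusted p = 1.1e-05).

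Both methyltransferase genes of phosphatidylcholine synthesis fell too. The signal of cho2 (SPBC26H8.03), which adds the first methyl group to phosphatidylethanolamine, was 4098, 1021, 2814 and 2440 in opi10+ and 4296, 979.6, 3040 and 2342 in opi10-. For cho1 (SPBC337.16), which adds the others, it was 2991, 741.8, 1132 and 1417 in opi10+ and 3070, 759.1, 1360 and 1582 in opi10-. Both stayed below their unheated signals on all recovery arrays. At 43C cho2 fell by 1.29 ± 0.08 and cho1 by 1.14 ± 0.09 (adjusted p = 3.3e-05 and 6.8e-05).

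The phosphatidylserine synthase gene pps1 (SPCC1442.12) had a signal of 1500, 715.1, 784.7 and 1043 in opi10+ and 1803, 573.4, 855.4 and 1155 in opi10-. Every array after the start of heating lay below both unheated ones. Its fall at 43C, -0.54 ± 0.15 (adjusted p = 0.017), was lost without the unheated or the 43C array of opi10- (adjusted p = 0.108 and 0.103). The phosphatidylinositol synthase gene pis1 fell by 0.80 ± 0.10 (adjusted p = 0.00052).

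The 3 phosphatidylserine decarboxylase genes, which make phosphatidylethanolamine, differed at 43C. The change of psd1 was -0.32, a call lost without any of 3 single arrays (adjusted p from 0.0526 to 0.138). That of psd2 was -0.05 and was not called, and that of psd3 was 0.28 and was called. The psd3 change was -0.89 on the deposited scale, and its call was lost without any of 5 single arrays (adjusted p from 0.0551 to 0.194). The signal of psd2 (SPAC25B8.03) was 1960, 1496, 1757 and 2111 in opi10+ and 2003, 973.7, 1383 and 1824 in opi10-, lowest at 43C in both strains and by a wider step in opi10-.

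Sphingolipid genes mostly rose at 43C. Of 6 genes 5 rose and 1 fell, with a median of 1.18 log2, and on the deposited scale 5 were called higher and 1 lower with a median of 0.56. On the spike-in scale 4 were called higher, since the call of sur2 was lost (adjusted p = 0.1). The signal of aur1 (SPAC3H8.06), the inositol phosphorylceramide synthase that the antibiotic aureobasidin A inhibits, was 1422, 3380, 3120 and 2059 in opi10+ and 1159, 2833, 2308 and 1603 in opi10-. It was highest at 43C, stayed high at 1 h, and was above the unheated array at 3 h in each strain. The rise at 43C was 1.85 ± 0.09 (3.61-fold, adjusted p = 1.8e-05).

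The ceramide synthase genes lag1 and lac1 parted. The signal of lag1 (SPAC1A6.09C) was 1497, 2478, 2467 and 1819 in opi10+ and 1571, 2290, 2054 and 1327 in opi10-. That of lac1 was 2209, 1122, 1829 and 2376 in opi10+ and 2328, 1040, 1681 and 2141 in opi10-. At 43C lag1 was above and lac1 below its unheated array in each strain. The rise of lag1 was 1.24 ± 0.15 (adjusted p = 0.00033). The fall of lac1 was -0.38 ± 0.10 (adjusted p = 0.014) and was lost without either 43C array or the unheated opi10- array (adjusted p from 0.062 to 0.0847).

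The remaining rises of this group were those of a pair of hydroxylase genes and of a breakdown enzyme. These were scs7 (1.23 ± 0.11), which hydroxylates the fatty acid of ceramides, sur2 (0.87 ± 0.09), which hydroxylates the sphingoid base, and css1 (1.13 ± 0.13), a phospholipase C that cleaves inositol phosphosphingolipids (adjusted p = 0.00011, 0.00025 and 0.00031). The signal of css1 (SPBC32F12.01C) was 1529, 2244, 1919 and 2142 in opi10+ and 1250, 1724, 1456 and 2093 in opi10-. In both strains all later arrays of css1 lay above the unheated one.

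The largest rise among the 49 lipid genes at 43C was that of its3 (SPAC19G12.14), the phosphatidylinositol phosphate kinase whose product marks the plasma membrane. Its signal was 578, 1904, 842.9 and 615.9 in opi10+ and 482.9, 1401, 672.4 and 527.1 in opi10-. The 43C arrays stood far above all others, and by 3 h the signal was close to the unheated one. The rise was 2.30 ± 0.10 (4.92-fold, adjusted p = 1.2e-05), and 1.60 on the deposited scale. The other phosphoinositide kinase gene among the members, pik1, had a change of -0.18 that did not pass the test (adjusted p = 0.1).

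Both phospholipase genes changed at 43C, in opposite directions. The signal of plc1 (SPAC22F8.11), the phosphoinositide-specific phospholipase C that cleaves the product of Its3, was 1291, 1377, 1786 and 2124 in opi10+ and 878.6, 1581, 1809 and 1889 in opi10-. That of plb1 (SPAC1A6.04C), a phospholipase B, was 3738, 1163, 2612 and 5088 in opi10+ and 3181, 1102, 2871 and 6178 in opi10-. Signals of plc1 grew from stage to stage in both strains, whereas plb1 was lowest at 43C and highest at 3 h. At 43C plc1 rose by 1.10 ± 0.16 and plb1 fell by 0.88 ± 0.13 (adjusted p = 0.0009 and 0.00094). On the deposited scale the changes were 0.46 and -1.59 (adjusted p = 0.035 and 1.9e-05). The normalized rise of plc1 was 0.74 in opi10+ and 1.45 in opi10-, and this gap of 0.71 was the largest positive one among members at 43C.

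Storage lipid genes showed no called rise at 43C. The signal of plh1 (SPBC776.14), which moves a fatty acid from phospholipid to diacylglycerol, was 1020, 206.9, 866.7 and 1129 in opi10+ and 1120, 335.1, 1021 and 1130 in opi10-, lowest at 43C and level with the unheated arrays by 3 h. It fell by 0.85 ± 0.10 (adjusted p = 0.00034). The diacylglycerol acyltransferase gene dga1 fell by 0.31 (adjusted p = 0.037), a call lost without any of 5 single arrays (adjusted p from 0.0685 to 0.193). The sterol acyltransferase genes are1 and are2, which store sterol as esters, had changes of 0.02 and 0.01 that were not called, and of -0.96 and -0.70 on the deposited scale.

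**Figure D4:**
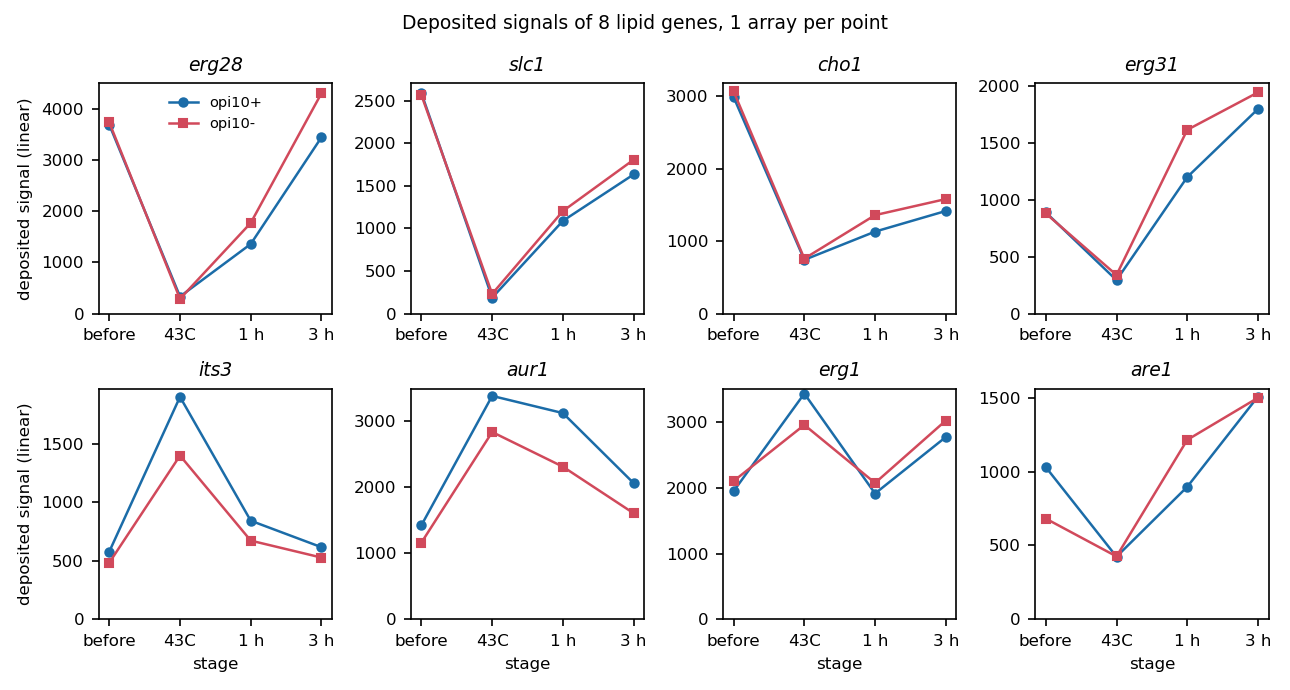
Deposited signal (vertical axes, linear, from 0) of 8 lipid genes at the 4 stages (horizontal axes), with opi10+ as blue circles and opi10- as red squares, 1 array per point. The genes erg28, slc1, cho1 and erg31 drop at 43C, its3 and aur1 peak there in both strains and erg1 in opi10+, and erg31 and are1 are highest at 3 h in both strains.

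From 43C to 1 h of recovery, members moved both ways. After normalization 18 rose and 12 fell, or 36.7% and 24.5%, beside 35.1% and 30.3% of all tested genes, so the shares were near those of all genes. On the deposited scale 36 rose and 2, its3 and erg1, fell, beside 2272 and 211 of all 2892 genes. The rises included erg28 (1.22), slc1 (1.17), hmg1 (1.07), erg31 (1.01), lcf2 (0.93), cho2 (0.92) and erg24 (0.89), and 4 of 5 fatty acid genes. The falls included its3 (-1.85), erg1 (-1.20), sre2 (-0.89), css1 (-0.84) and aur1 (-0.72), and no sphingolipid gene rose after normalization, while lac1 had 0.03 there and rose by 0.69 on the deposited scale (adjusted p = 0.00036). The change of sre2 over this step was 0.17 on the deposited scale.

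At 1 h of recovery many lipid genes were still away from the unheated level. Of the 49 genes 23 were lower and 10 higher, beside 27.3% and 25.6% of all tested genes, and the members' median was -0.28 against a median of 0.00 over all genes. Lower calls were made for 14 of 19 sterol synthesis genes (median -0.36) and for 6 of 8 phospholipid synthesis genes (median -0.42). The largest of these were cho1 (-1.26 ± 0.09), slc1 (-1.20 ± 0.08), erg28 (-1.17 ± 0.17), pps1 (-1.11 ± 0.15) and erg6 (-0.96 ± 0.10). On the spike-in scale 13 members were called lower in place of 23, beside 413 of all genes in place of 789, and 11 of the 23 were called without each array in turn, cho1, slc1, erg28, pps1 and erg6 among them.

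Some genes had changed more by 1 h of recovery than at 43C. The sterol methyltransferase gene erg6 had a change of -0.51 at 43C and -0.96 at 1 h, erg4 of -0.31 and -0.86, and pps1 of -0.54 and -1.11, and from 43C to 1 h all 3 fell further (adjusted p = 0.0061, 0.0044 and 0.015). The further falls of erg6 and pps1 were lost without the 43C or the 1 h array of opi10+ (adjusted p from 0.0521 to 0.0859), and that of pps1 also without the 1 h array of opi10- (adjusted p = 0.0869). On the deposited scale the 3 changes from 43C to 1 h were positive, at 0.09, 0.31 and 0.35. The genes still higher than unheated at 1 h included aur1 (1.13 ± 0.09), plc1 (0.79 ± 0.16), scs7 (0.78 ± 0.11), sur2 (0.65 ± 0.09), erg31 (0.63 ± 0.11), lag1 (0.61 ± 0.15), scp1 (0.58 ± 0.08), sre2 (0.47 ± 0.11), its3 (0.45 ± 0.10) and erg32 (0.37 ± 0.10). Of these 10, aur1, erg31, scp1, scs7 and sur2 were called without each array in turn.

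By 3 h of recovery, after normalization, erg31, are1, are2 and both phospholipase genes were called higher than unheated. The calls of are1 and plc1 depended on single arrays, as given below. Most phospholipid and fatty acid synthesis genes were lower. Of the 49 genes 10 (20.4%) were higher and 18 (36.7%) lower, beside 19.7% and 22.2% of all tested genes, with medians of -0.07 and -0.03. The share of rises was thus near that of all genes. Leaving out single arrays moved these counts to between 3 and 9 higher and between 10 and 17 lower. The smallest count of higher genes, 3, came without the 3 h array of opi10-, and the smallest count of lower genes, 10, without that of opi10+. The deposited scale gave 13 members higher and 15 lower, beside 776 and 330 of all 2892 genes, and the spike-in scale 10 and 6, beside 774 and 128.

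The largest rise at 3 h was that of erg31, at 1.00 ± 0.11 (2.00-fold, adjusted p = 0.0025), above the unheated arrays in both strains as its signals above show. Both sterol acyltransferase genes rose next to it. The signal of are2 (SPCP1E11.05C) was 1991, 1068, 1664 and 3051 in opi10+ and 1316, 922.3, 1695 and 3022 in opi10-. For are1 (SPAC13G7.05) it was 1032, 423.7, 898.1 and 1511 in opi10+ and 682.4, 425.5, 1217 and 1503 in opi10-. The 2 strains gave nearly the same signal at 3 h but had started apart. The rises were 0.85 ± 0.14 for are2 and 0.74 ± 0.20 for are1 (adjusted p = 0.0057 and 0.028), and that of are1 was lost without either 3 h array or the unheated opi10- array (adjusted p from 0.088 to 0.145).

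Both phospholipase genes were higher at 3 h than unheated, plc1 by 0.83 ± 0.16 and plb1 by 0.79 ± 0.13 (adjusted p = 0.0089 and 0.0058). The plc1 call was lost without the 3 h array of opi10- (adjusted p = 0.0508). Smaller rises were those of css1 (0.55), erg1 (0.45), aur1 (0.42), sur2 (0.36) and erg24 (0.36), each lost when 1 of at least 2 arrays was left out.

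The falls at 3 h were led by cho1, at -1.07 ± 0.09 (2.10-fold, adjusted p = 0.0015). The signal of erg4 (SPAC20G4.07C), the late sterol reductase, was 1655, 860.9, 981.5 and 1051 in opi10+ and 1747, 735.2, 1001 and 1112 in opi10-, so it stayed below the unheated arrays throughout. It fell by 0.83 ± 0.11, followed by cho2 (-0.82 ± 0.08), pps1 (-0.75 ± 0.15) and fas2 (-0.74 ± 0.09), with adjusted p of 0.0035, 0.0022, 0.011 and 0.0034. The pps1 call was lost without the 3 h array of opi10+ or the unheated array of opi10- (adjusted p = 0.0658 and 0.0688). Of 8 phospholipid synthesis genes 5 were lower, including pis1 (-0.66) and slc1 (-0.65). Of 5 fatty acid genes 4 were lower, including lcf1 (-0.54), fas1 (-0.49) and lcf2 (-0.30). On the spike-in scale 4 of the 8 and 1 of the 5 were called lower, and on the deposited scale 5 and 4. Of the 18 falls at 3 h, 9 were called without each array in turn, those of cho1, cho2, erg2, erg4, erg6, erg8, fas2, pis1 and slc1.

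Sterol synthesis genes were mixed at 3 h, with 9 lower, 3 higher and 7 not called. The lower ones included erg6 (-0.53), erg2 (-0.52), erg27 (-0.51), erg8 (-0.48), erg7 (-0.45), hcs1 (-0.42), hmg1 (-0.41) and erg10 (-0.38), which span early and late steps, and on the spike-in scale 1 of the 9 was called. Those not called included erg28 (0.14) and erg12 (0.04), which had been among the largest falls at 43C. The changes of erg5, erg9, erg11, erg25 and erg32 lay between -0.09 and 0.17. None of psd1, psd2, psd3, plh1, dga1, lac1, lag1, scs7, cut6, its3 and pik1 was called at 3 h, with changes from -0.21 to 0.24.

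Across all stages no lipid gene was called different between the strains. The strain term, 4 arrays against 4, called 0 of the 49 members and 0.0% of all tested genes, with a smallest adjusted p of 0.339 among members and 0.296 overall. At an unadjusted p under 0.05 there were 6 members and 317 of 2892 genes. On the spike-in scale 12 genes were called in all (7 higher and 5 lower in opi10-), with 0 members. The largest strain term among members was -0.28 ± 0.07 for aur1 and the same for its3, with opi10- lower (adjusted p = 0.34 and 0.36).

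Within a stage the strains are 1 array against 1 array, so no test can be given. No member differed by 2-fold or more at any stage, while among all tested genes 0.657% did so unheated, 0.38% at 43C, 0.138% at 1 h and 0.553% at 3 h. Differences below are opi10- minus opi10+ in log2 after quantile normalization, so they are not the ratios of the deposited signals given above.

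In unheated cells the widest differences were those of are2 (-0.52), are1 (-0.51), plc1 (-0.48) and pps1 (0.34). The first 3 lay beyond the 5th percentile of all tested genes, -0.42, and pps1 just beyond the 95th, 0.33. At 43C they were those of psd2 (-0.49), plh1 (0.42), its3 (-0.38) and erg32 (-0.30), against a range of -0.37 to 0.31 over the same percentiles.

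At 1 h of recovery css1 (-0.53), are1 (0.43), psd2 (-0.43) and erg31 (0.42) stood widest, and aur1 followed at -0.42. At 3 h they were lag1 (-0.44), erg28 (0.42), lcf1 (0.38) and erg27 (0.38). The signal of erg27 (SPBC1709.07) was 1062, 290.4, 638.6 and 802.2 in opi10+ and 1081, 318.2, 676.2 and 956.1 in opi10-, so the strains were apart mainly at 3 h. The sign for are1 differed between unheated cells and 1 h of recovery, while psd2 and its3 were lower in opi10- at 3 and 4 of the 4 stages.

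By role, all 6 sphingolipid genes were lower in opi10- at 43C and at 1 h, with medians of -0.13 and -0.26, and 5 of 6 at 3 h (-0.14). Before heat 3 of 6 were lower. Of the sterol synthesis genes 16 of 19 were higher in opi10- before heat (median 0.09), 13 of 19 lower at 43C, and 15 of 19 higher at 1 h and again at 3 h, the last 3 with medians of -0.03, 0.07 and 0.13. Over all tested genes the median difference lay between 0.00 and 0.03 at every stage. In stage order, 1271, 1321, 1352 and 1420 of the 2892 genes were lower in opi10-, and 1609, 1553, 1521 and 1449 were higher. The genes of a group share the same 2 arrays, so these counts are no replicates.

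**Figure D5:**
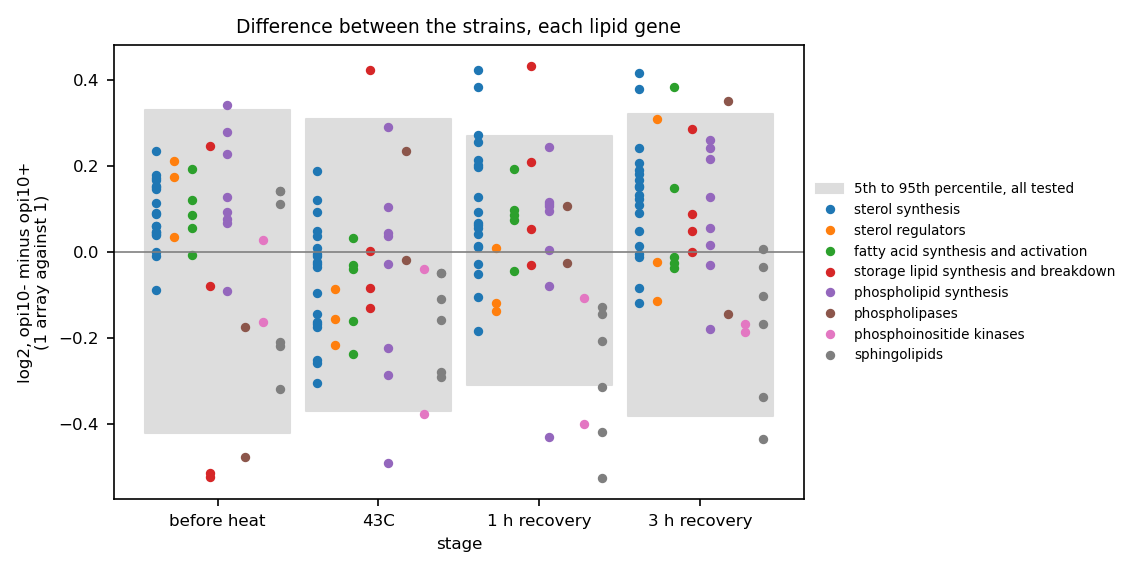
Log2 difference between the strains, opi10- minus opi10+ (vertical axis), for each of the 49 lipid genes at each stage (horizontal axis), 1 array against 1, coloured by role. Grey boxes span the 5th to 95th percentile of all 2892 tested genes; all points lie between -0.53 and 0.43, and the sphingolipid genes lie below 0 at 43C and at 1 h.

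Other genes of lipid metabolism, from a list that does not overlap the rule, moved both ways at 43C. Of 42 measured genes 15 rose and 15 fell, or 15 and 13 of 40 without gpt2 and spo14, names that may belong to a different gene in S. pombe. Over all tested genes 32.8% rose and 39.8% fell, so the counts of the whole list were near those shares. Of 6 mevalonate and isoprenoid genes outside the rule 4 fell, 1 rose (spo9, 0.57) and 1 was not called. The largest falls were those of fps1, the prenyl diphosphate synthase gene, at -1.81 ± 0.08, and mvd1, the mevalonate diphosphate decarboxylase gene, at -1.41 ± 0.11 (adjusted p = 1.4e-05 and 6.3e-05). Signals of fps1 were 5862 and 5733 unheated and 1045 and 1008 at 43C.

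Sphingolipid genes outside the rule rose in 3 of 4 cases. These were the mannosyl inositol phosphorylceramide synthase genes imt2 (1.55 ± 0.19), imt3 (1.25 ± 0.15) and imt1 (0.50 ± 0.11), the last of which was lower on the deposited scale (-0.32), while lcb2, a serine palmitoyltransferase subunit gene, fell by 0.27. The signal of imt2 was dim, from 26.4 to 105.2. The phosphoinositide kinase gene fab1 fell by 1.06 ± 0.12.

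Among genes listed under oxygen and sterol response, ubx3, the gene of a cofactor of the ATPase Cdc48, rose by 2.64 ± 0.16, and cdc48 by 1.01 ± 0.10 (adjusted p = 2.8e-05 and 0.00015). Of the genes of the Dsc ligase, which releases Sre1 from the membrane, dsc2 and dsc3 fell by 0.57 and 0.51. The ligase genes dsc1, dsc4 and dsc5 were not called. The Sre1 inhibitor gene ofd1 (0.13) and the lipid gene transcription factor cbf11 (0.21) were not called either, and mga2 was not measured under that name. At 43C tcb2, named for budding yeast tricalbins that tie membranes together, rose by 2.22 ± 0.39, and plg7 by 1.89 ± 0.13. At 3 h tcb2 was higher by 1.72 ± 0.39 and gut2, a mitochondrial glycerol phosphate dehydrogenase gene, by 1.72 ± 0.24 (adjusted p = 0.015 and 0.004). The signal of gut2 was 837.4 in unheated opi10+ and 400.7 in unheated opi10-, and 2020 and 1927 at 3 h.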

How the data were processed

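The authors deposited signal intensity values on a linear scale for 10928 probe sets on 8 arrays. How probes were summarised, and whether arrays were scaled to each other, is not stated in the sources used here, and the labels name no scan batch. Gene names came from the platform annotation, updated to the ASM294v3 gene table. Values were transformed as log2(value + 16) and quantile normalized over 2914 S. pombe probe sets, because array medians differed. Genes with a mean signal above 6.04, the 75th percentile of S. cerevisiae probe sets, were tested (2892), by their brightest probe set.

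An additive model of strain and stage over 8 arrays was fitted with limma 3.58.1 (R 4.3.3), with 3 residual degrees of freedom and Benjamini-Hochberg adjustment over all tested genes. The error term comes from unlike responses of the strains. Real differences in response and technical scatter both enter it and cannot be told apart. A p-value therefore reflects only how these arrays scatter. The number of arrays limits the precision. The fit was tested on simulated data.

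Alternatives were the deposited scale, a spike-in scale, pseudocounts of 1 and 64, no filter, a mean signal of at least 100, an intensity trend, and leaving out each array. With 1 array left out, the lone array of a stage is assumed to vary like the others.

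The members, roles and lists were chosen with earlier results of these data known. The text names every member, gives signals on all arrays for the 5 largest called rises and falls at 43C and at 3 h, the 3 regulators and the 4 widest strain differences per stage, and lac1 in addition. Of other lipid genes it names ofd1, mga2, cbf11 and those called with at least a 2-fold change, except 1 that is not reported here. The genes imt1, lcb2, spo9 and dsc1 to dsc5 were added after their values were seen, to complete their groups. No sequences were used.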

Additional observations from a re-analysis of the deposited data

Results flagged for a closer look

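For 28 of 196 combinations of a lipid gene and a comparison, the array of one strain moved up and that of the other strain moved down after quantile normalization. These differences rest on 1 array per strain and stage and were not tested. Each value is the opi10- change minus the opi10+ change in log2. Both strains moved the same way for 45 of 49 members at 43C, beside 2644 of all 2892 tested genes. The counts were 41 and 2612 from 43C to 1 h, and, against unheated cells, 44 and 2404 at 1 h and 37 and 2345 at 3 h. Whether the members differ from all genes in this was not tested.

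At 43C against unheated cells, the normalized values of the ester storage genes are1 (0.43) and are2 (0.39) fell in opi10+ and rose in opi10-. Both had started lower in unheated opi10-. The directions were reversed for psd2 (-0.58) and erg9 (-0.24). The deposited signals of are1, are2, psd2 and erg9 fell at 43C in both strains. At 1 h of recovery against unheated cells the widest of all was are1 at 0.94, from changes of -0.21 in opi10+ and 0.74 in opi10-. There are2 gave 0.49, erg24 0.36, lcf2 -0.24 and erg1 -0.09.

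From 43C to 1 h of recovery, opi10- moved up and opi10+ down for are1 (0.52), lcf1 (0.33), psd1 (0.23), erg25 (0.15) and erg11 (0.12). The differences for lac1 (-0.16) and hcs1 (-0.05) had the other sign. The deposited signals of all genes named in this paragraph rose over this step in both strains.

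At 3 h of recovery against unheated cells, lag1 gave -0.58, from changes of 0.21 in opi10+ and -0.37 in opi10-. Negative differences were also found for psd2 (-0.27), lac1 (-0.25), pik1 (-0.21), sre2 (-0.20), erg32 (-0.18), psd3 (-0.17) and plh1 (-0.16). Positive ones were found for erg28 (0.37), dga1 (0.36), erg12 (0.16) and erg5 (0.13). In many of these 1 strain's change was under 0.1, so the opposite signs are small in size.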

How the results depend on the processing

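With 8 arrays and 3 residual degrees of freedom, calls of small changes depend on single arrays, and scaling decides the sign of small changes at 43C. Pseudocounts of 1 and 64, no filter and a mean signal of at least 100 changed none of 196 member results, and an intensity trend added 1 call. Strain counts stayed at 0 under every alternative run. Leaving out single arrays gave 11 to 12 members higher and 21 to 30 lower at 43C, 15 to 18 higher and 7 to 14 lower from 43C to 1 h of recovery, 6 to 10 higher and 13 to 23 lower at 1 h against unheated cells, and 3 to 9 higher and 10 to 17 lower at 3 h, and no called direction turned. Of the members called at 43C, 11 of 12 rises and 21 of 30 falls were called without each array in turn. On the deposited scale 36 members rose and 2 fell from 43C to 1 h, and on the spike-in scale 35 and 2. The spike-in scale also gave 7 higher at 43C, 13 lower at 1 h and 6 lower at 3 h against unheated cells. At 43C changes turned negative on the deposited and spike-in scales for are1 (-0.957 and -0.959), are2 (-0.697 and -0.699), psd3 (-0.889 and -0.888) and erg32 (-0.032 and -0.034). From 43C to 1 h they turned positive for scp1 (0.522 and 0.558), erg4 (0.312 and 0.348), cho1 (0.714 and 0.75), erg9 (0.236 and 0.273), dga1 (0.686 and 0.721), sre2 (0.174 and 0.21), erg6 (0.091 and 0.127), erg27 (1.073 and 1.107), erg5 (0.523 and 0.56), pps1 (0.348 and 0.384), scs7 (0.07 and 0.107), psd3 (1.109 and 1.141), erg32 (0.307 and 0.343), psd2 (0.365 and 0.401), sur2 (0.255 and 0.291) and plc1 (0.282 and 0.318). These scales keep the lower brightness of the 43C arrays, which quantile normalization removes, and which of them is nearer to the cells was not tested.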
